A study of Mus musculus with 16 samples.

Results

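Kirrel2, Kirrel3, Epha5, Efna5, Epha4 and Efna3 are 6 genes for cell surface proteins with roles in the sorting of olfactory axons into glomeruli. They were taken by name from the annotated probe sets of Clariom S mouse arrays, on which 19572 probe sets named 1 gene and stood for 19505 gene symbols. Each of the 6 genes had 1 probe set, so no choice among probe sets was needed.

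Olfactory sensory neurons that express the same odorant receptor send their axons to the same glomeruli of the olfactory bulb. Kirrel2 and Kirrel3 encode immunoglobulin superfamily proteins that bind their own kind on neighbouring axons, and ephrin-A ligands and EphA receptors mediate contact repulsion between axons. Levels of these proteins are known to differ between neurons with different receptors and to depend on neuronal activity, with Kirrel2 raised and Kirrel3 lowered by signalling through the cyclic nucleotide-gated channel.

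The mice were S100a5-tauGFP animals of both sexes, 7 to 12 weeks old, so the reporter allele was shared by all groups. S100a5, the gene that gives the reporter its name, is known as a gene that rises with activity in these neurons. Mice were kept singly in clean air chambers for 40 h, and from 26 h onwards they received pulses of 10 s every 20 min of either 2-octanone, an odorous ketone, or filtered air as the vehicle. Olfactory mucosa of 3 mice was pooled, which gave 4 pools for each exposure, and cell sorting divided every pool into GFP+ and GFP− cells. The 4 groups of 4 arrays were thus GFP+ and GFP− cells after 2-octanone and GFP+ and GFP− cells after vehicle, from 24 mice in all. A pool averages its 3 mice, and the GFP− fraction is defined only by lack of the reporter, so it holds neurons and other cells together.

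Signals are the authors' normalised values, read as log2. A difference of 1 is then a 2-fold change, and signals of different genes come from different probes and were not ranked against each other. The 16 arrays were fitted together with limma, and genes whose p, adjusted by Benjamini-Hochberg over all 19572 probe sets, was under 0.05 are named as called. The number of arrays, 4 in each group, limits the precision.

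Omp, the marker of mature olfactory neurons, lay between 17.76 and 18.45 on all 16 arrays. Over both exposures it was not called between the fractions (0.15, limma adjusted p = 0.206), and its difference was 0.07 without both replicate 4 pools (adjusted p = 0.481). Of the 10 mature neuron markers 6 were called higher in GFP+ cells (median difference 0.34), where 16.7% of all probe sets were called higher. S100a5 differed by 0.83 (SE 0.60) and read higher in GFP+ cells in 8 of 8 pools. It was not called in the unpaired fit (limma adjusted p = 0.304), but was when the pool entered as a block, so that each GFP+ sample was compared with GFP− cells of its own mice (limma adjusted p = 0.000487), and without both replicate 4 pools (1.02, adjusted p = 5.66e-06). The replicate 4 pools of both exposures stood apart, with S100a5 between 13.11 and 13.92 against 15.45 to 16.98 on the other arrays. The S100a5 difference between the fractions was 0.38 in octanone replicate 4 and 0.11 in vehicle replicate 4, against 0.87 to 1.22 in the other pools. Fos, another check gene, was highest in replicate 4 in each of the 4 groups. In GFP− cells it read 16.01 there after 2-octanone and 15.56 after vehicle, against 12.30 to 14.06 and 13.31 to 13.76 in the other replicates. In GFP+ cells it read 12.05 and 10.88, against 8.46 to 9.41 and 9.20 to 9.22. Results below are given without the replicate 4 pools wherever that changes a call.

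The promoters of Kirrel2 and Epha5 are shown because these are the genes that were higher in GFP+ cells in the data described next. RefSeq promoters (assembly GRCm38.p6) were found for 5 of the 6 genes, Kirrel3 being the exception. The 250 bases before the start of the Kirrel2 gene lie at chr7:30457516-30457765 on the minus strand, with 56.4% G and C, and those of Epha5 at chr5:84417383-84417632 on the minus strand, with 62.4%. The capitals mark the homeodomain core TAATTA, and each sequence reads 5′ to 3′ towards the start.
Kirrel2: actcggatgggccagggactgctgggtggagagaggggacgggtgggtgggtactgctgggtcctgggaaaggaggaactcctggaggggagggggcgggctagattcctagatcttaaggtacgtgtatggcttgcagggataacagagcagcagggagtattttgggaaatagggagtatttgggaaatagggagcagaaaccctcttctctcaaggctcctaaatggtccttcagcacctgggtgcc
Epha5: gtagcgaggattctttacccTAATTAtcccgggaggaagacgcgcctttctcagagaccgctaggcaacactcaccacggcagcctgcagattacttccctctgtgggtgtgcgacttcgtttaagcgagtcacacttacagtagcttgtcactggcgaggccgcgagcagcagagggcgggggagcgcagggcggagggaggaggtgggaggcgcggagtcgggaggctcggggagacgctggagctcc
5 motifs were searched on both strands: TGACG, the short cyclic AMP response element, which also lies within the full palindrome TGACGTCA, the Olf1/EBF core of TCCC and GGGA 2 bases apart, the homeodomain core TAATTA and the AP-1 site TGANTCA. Of 27025 RefSeq promoters of the same length, 17.9% held TGACG, 1.62% TGACGTCA, 0.788% the Olf1/EBF core, 4.9% TAATTA and 6.87% TGANTCA. The Epha5 window held 1 TAATTA, 230 bases before the start, and the Epha4 window held 1 TGACG, 57 bases before it. None of these letters were found in the windows of Kirrel2, Efna5 or Efna3. These matches describe the sequence only.

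GFP+ and GFP− cells were compared first over both exposures. Kirrel2 and Epha5 were higher in GFP+ cells, by 1.34 and 1.17, Epha4 read lower at a signal near background, and Kirrel3, Efna5 and Efna3 did not pass the test. Of the 6 genes 2 were called higher and 1, Epha4 near background, lower by limma, where 30.7% of all probe sets were called in this comparison (16.7% higher and 14.0% lower). The median difference of all 19572 probe sets was 0.13. In sorted bulk samples fewer cells of a type and less RNA per cell cannot be told apart.

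**Figure D1:**
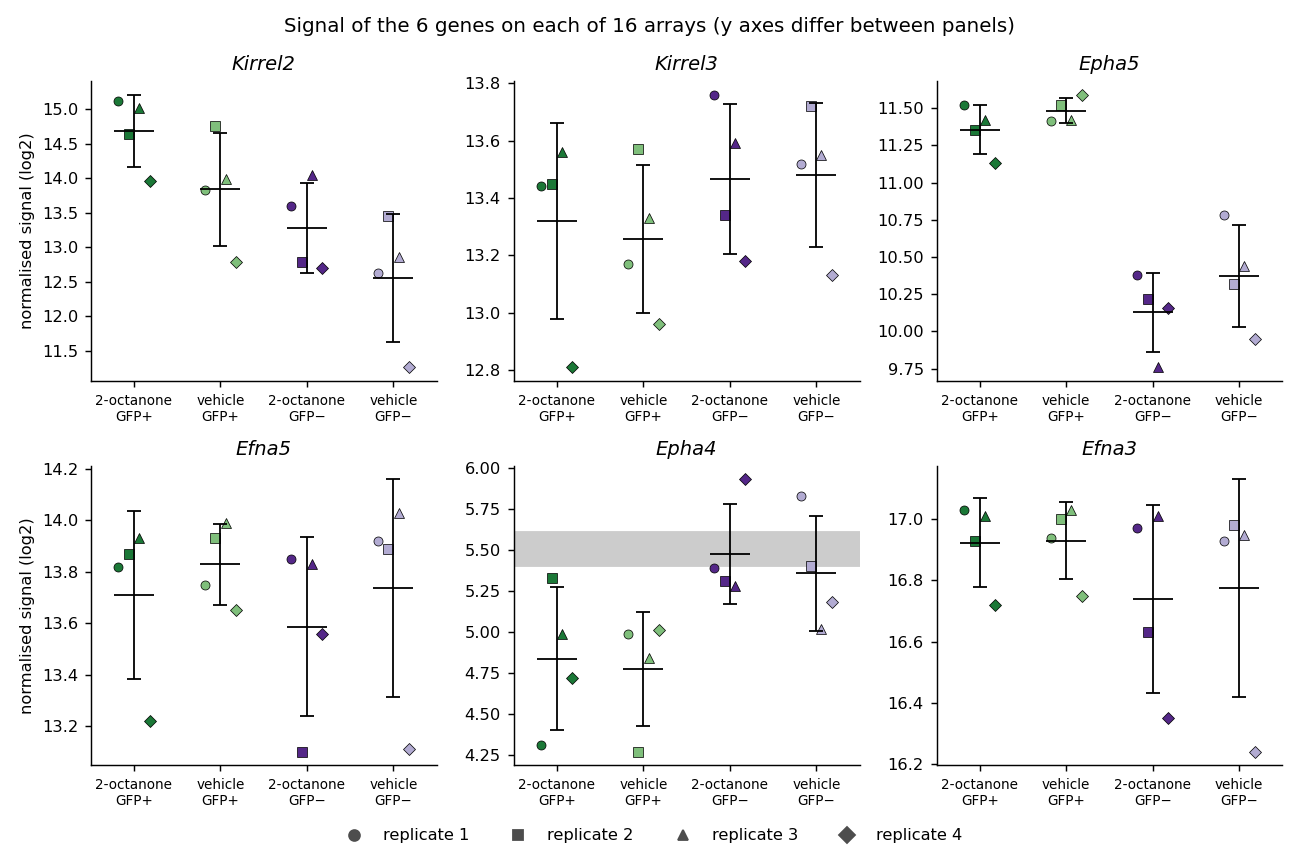
Normalised signal (log2) of the 6 genes on each of the 16 arrays, with 1 panel per gene and 1 column per group; symbols give the replicate pool, horizontal bars the mean of 4 arrays and whiskers the SD. Epha5 separates GFP+ from GFP− cells without overlap, Kirrel2 is highest in GFP+ cells after 2-octanone with overlapping groups, and Epha4 lies at or under the mean of the array's background probe sets (grey band, 5.40 to 5.61) on most arrays.

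Kirrel2 encodes the homophilic adhesion protein that is raised by activity. In GFP+ cells after 2-octanone it read 15.12, 14.64, 15.01 and 13.95 in replicates 1 to 4, a mean of 14.68 ± 0.53 (SD, n = 4). In GFP+ cells after vehicle it read 13.82, 14.76, 13.98 and 12.78, a mean of 13.83 ± 0.81. Its values in GFP− cells were 13.60, 12.78, 14.04 and 12.70 with 2-octanone (13.28 ± 0.65), and with vehicle 12.63, 13.45, 12.85 and 11.26 (12.55 ± 0.93). Replicate 4 was the lowest array of each of the 4 groups, and neighbouring groups overlapped. In the order of the means, GFP+ cells after 2-octanone stood first, then GFP+ cells after vehicle, then GFP− cells after 2-octanone and last GFP− cells after vehicle. Only the first of these 3 gaps, 0.85, was larger than the larger SD of its 2 groups.

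Between the fractions Kirrel2 differed by 1.34 (SE 0.33, 95% interval 0.65 to 2.03, limma adjusted p = 0.00505), a 2.53-fold higher signal in GFP+ cells. Within the pools the difference was 1.52, 1.85, 0.96 and 1.25 for 2-octanone replicates 1 to 4, and 1.18, 1.30, 1.13 and 1.52 for the vehicle replicates. Kirrel2 was thus higher in GFP+ cells in 8 of 8 pools, by 0.96 to 1.85, although the level of the pools themselves, as the mean of both fractions, ran from 12.02 to 14.53. With the pool as a block the SE was 0.11 (adjusted p = 1.88e-06, with 36.0% of probe sets called). After vehicle alone the difference was 1.28 (SE 0.46) and after 2-octanone alone 1.40 (SE 0.46), and neither was called in the unpaired fit (adjusted p = 0.0653 and 0.0518). Both were called with the pool as a block (7.85e-05 and 4.77e-05) and without both replicate 4 pools (1.21, adjusted p = 0.0253, and 1.45, adjusted p = 0.00851), where 15.5% and 16.2% of probe sets were called.

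Kirrel2 signals of the fractions moved together from pool to pool. Over the 8 pools the GFP+ and GFP− signals correlated with r = 0.94 (exact permutation p = 0.000819) and a Spearman coefficient of 0.95 (exact permutation p = 0.0011). Without the 2 pools farthest from the median r was 0.84, and without both replicate 4 pools 0.83, each over 6 pools. This was 1 of 6 such relations, and adjusted over the same test in all 19572 probe sets none was called (adjusted p = 0.221 for Kirrel2 by r, 0.286 by Spearman rank). Over all probe sets the median r was 0.21, and 0.337% had an r at least as high as that of Kirrel2. Each exposure has 4 pools, too few for a value within it. Efna3 gave r = 0.94 (exact permutation p = 0.0055, Spearman 0.76, exact permutation p = 0.0368) but 0.67 without both replicate 4 pools, which were its 2 farthest. Kirrel3 gave 0.81 (exact permutation p = 0.0197, Spearman 0.71, exact permutation p = 0.0576) and 0.31 without them, so its relation rested on those pools. For Epha5 r was −0.03 (exact permutation p = 0.947, Spearman −0.17, exact permutation p = 0.703), for Efna5 0.34 (exact permutation p = 0.447, Spearman 0.50, exact permutation p = 0.216) and for Epha4 −0.11 (exact permutation p = 0.794, Spearman −0.36, exact permutation p = 0.389).

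**Figure D2:**
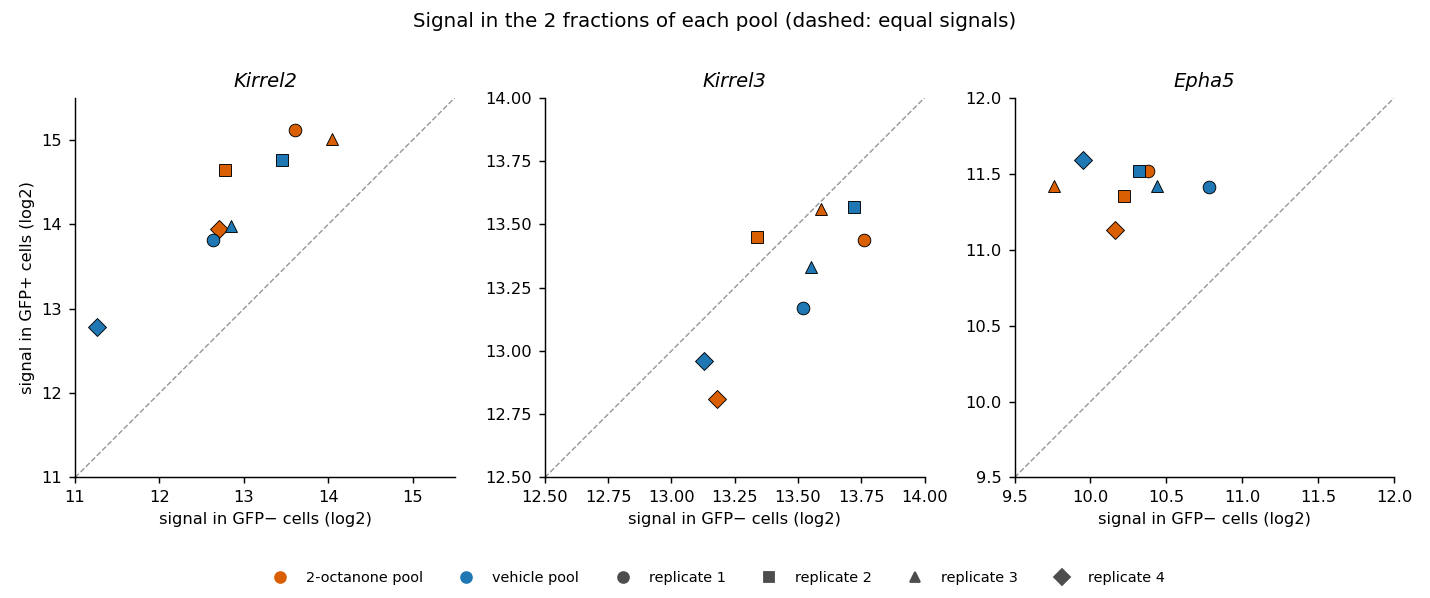
Signal (log2) in GFP+ cells against signal in GFP− cells of the same pool for Kirrel2, Kirrel3 and Epha5, 1 point per pool, with colour for the exposure and symbol for the replicate number; the dashed line marks equal signals. Kirrel2 runs parallel to the line and above it over more than 2 log2 units, Kirrel3 lies on or under it in 7 of 8 pools, and Epha5 lies above it with no common trend.

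Kirrel3, the second homophilic member of the family and the one lowered by activity, kept within a narrow range of 12.81 to 13.76 on all arrays. GFP+ cells gave 13.44, 13.45, 13.56 and 12.81 with 2-octanone, and with vehicle 13.17, 13.57, 13.33 and 12.96. GFP− cells gave 13.76, 13.34, 13.59 and 13.18 with 2-octanone, and with vehicle 13.52, 13.72, 13.55 and 13.13. The groups overlapped, no gap between neighbouring group means exceeded their SD, and replicate 4 was again the lowest in all 4 groups. The difference between the fractions was −0.19 (SE 0.14, 95% interval −0.47 to 0.10, limma adjusted p = 0.311), with lower values in GFP+ cells in 7 of 8 pools, and it turned to 0.09 with arrays centred on their medians. With the pool as a block the interval of the uncentred difference was −0.38 to 0.01 (SE 0.09, limma adjusted p = 0.12). Within pools the change of Kirrel2 exceeded that of Kirrel3 in 8 of 8, by 1.53 ± 0.27 (SD, n = 8 pools) and between 0.99 and 1.84.

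Epha5 encodes a receptor tyrosine kinase for ephrin-A ligands. Epha5 signals of GFP+ cells were 11.52, 11.35, 11.42 and 11.13 with 2-octanone (11.35 ± 0.17, SD, n = 4), and with vehicle 11.41, 11.52, 11.42 and 11.59 (11.48 ± 0.09). Those of GFP− cells were 10.38, 10.22, 9.76 and 10.16 with 2-octanone (10.13 ± 0.26), and with vehicle 10.78, 10.32, 10.44 and 9.95 (10.37 ± 0.34). The lowest GFP+ array lay above the highest GFP− array, while the exposures overlapped within each fraction. The difference was 1.17 (SE 0.12, 95% interval 0.91 to 1.42, limma adjusted p = 9.22e-07), a 2.25-fold higher signal, with higher values in 8 of 8 pools. Within the pools it was 1.14, 1.13, 1.66 and 0.97 for 2-octanone replicates 1 to 4, and 0.63, 1.20, 0.97 and 1.64 for the vehicle replicates. It was called after vehicle alone (1.11, adjusted p = 0.00013) and after 2-octanone alone (1.22, adjusted p = 6.23e-05). Epha5 was the only one of the 6 genes called within each exposure in the unpaired fit, where 18.6% of probe sets were called after vehicle and 15.1% after 2-octanone. With the pool as a block Kirrel2 joined it in each, against 21.9% and 19.7% of probe sets.

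Efna5 encodes ephrin-A5, a membrane-anchored ligand of EphA receptors. Its signal in GFP+ cells was 13.82, 13.87, 13.93 and 13.22 with 2-octanone, and with vehicle 13.75, 13.93, 13.99 and 13.65. The GFP− signals were 13.85, 13.10, 13.83 and 13.56 with 2-octanone, and with vehicle 13.92, 13.89, 14.03 and 13.11. All 4 groups overlapped, and GFP+ cells were higher in 4 of 8 pools. The difference was 0.11 (SE 0.16, 95% interval −0.22 to 0.44, limma adjusted p = 0.618), and 0.39 with arrays centred on their medians (adjusted p = 0.033). Within pools the change of Epha5 exceeded that of its ligand Efna5 in 8 of 8, by 1.06 ± 0.35 (SD, n = 8 pools) and between 0.37 and 1.56.

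Efna3, the gene for the ligand ephrin-A3, gave a mean signal of 16.84 with a narrow spread. In GFP+ cells the arrays gave 17.03, 16.93, 17.01 and 16.72 with 2-octanone, and with vehicle 16.94, 17.00, 17.03 and 16.75. In GFP− cells they gave 16.97, 16.63, 17.01 and 16.35 with 2-octanone, and with vehicle 16.93, 16.98, 16.95 and 16.24. GFP+ cells read higher in 8 of 8 pools, but by 0.00 to 0.51, and the groups overlapped. The difference of 0.17 (SE 0.13, 95% interval −0.10 to 0.44) was not called (limma adjusted p = 0.317), and it was 0.45 with arrays centred on their medians (adjusted p = 0.00433). With the pool as a block the interval of the uncentred difference was −0.03 to 0.37 (limma adjusted p = 0.172).

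Epha4, a receptor that binds ephrins of both classes, read under the mean of the array's 23 background probe sets on 14 of 16 arrays, so its values bound its level and no fold is given. GFP+ arrays read 4.31, 5.33, 4.99 and 4.72 with 2-octanone, and with vehicle 4.99, 4.27, 4.84 and 5.01. GFP− arrays read 5.39, 5.31, 5.28 and 5.93 with 2-octanone, and with vehicle 5.83, 5.40, 5.02 and 5.18. The GFP+ values were lower in 7 of 8 pools, and all 8 GFP+ arrays lay under background. The probe signal was called lower in GFP+ cells (limma adjusted p = 0.0115), but not with arrays centred on their medians (adjusted p = 0.085), and at these signals the call gives no size of a change in level.

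**Figure D3:**
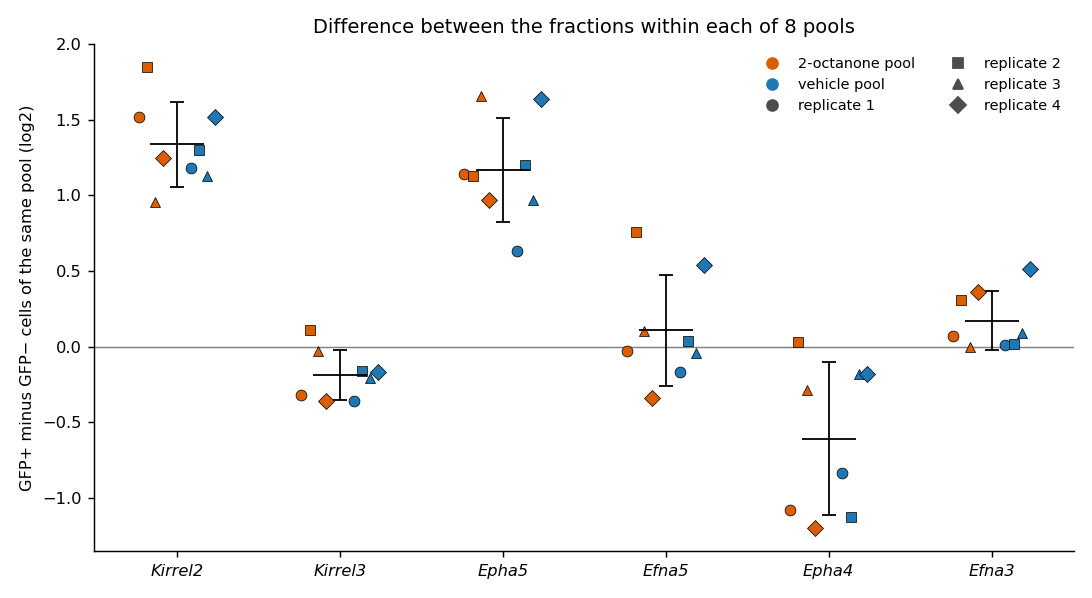
Difference between GFP+ and GFP− cells of the same pool (log2) for the 6 genes, 1 point per pool, with colour for the exposure and symbol for the replicate number; bars give the mean of the 8 pools and whiskers the SD. Kirrel2 (0.96 to 1.85) and Epha5 (0.63 to 1.66) lie above 0 in every pool. Efna3 also lies above 0 in each, by at most 0.51, Kirrel3 lies below 0 in 7 of 8, and Efna5 runs from −0.34 to 0.76 across 0.

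The scaling of the arrays bears on the small differences. Medians over named probe sets were 7.64 to 7.73 on GFP+ arrays and 7.92 to 8.01 on GFP− arrays. Centring each array on its median moved the median difference of all probe sets from 0.13 to 0.41, a shift of 0.28, and the share of calls that were higher in GFP+ cells from 54.4% to 86.4%. With centring the share of probe sets called was 77.4% over both exposures, 57.7% in the vehicle pools and 48.7% in the 2-octanone pools. Centring moves the difference of every probe set by the same amount, so no gene's distance from the median of all probe sets can change. With centring, Kirrel2 at 1.62 and Epha5 at 1.45 lay above the median of 0.41, and Kirrel3 at 0.09 lay below it. Efna3 at 0.45 and Efna5 at 0.39 lay close to it.

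Other genes of the same families were counted next. The arrays measured 25 Kirrel, nephrin, Eph and ephrin genes, of which 4 were called higher in GFP+ cells, 4 lower and 17 not. This is near the share of all probe sets called (30.7%), so the counts show nothing particular to these families, and the genes below are described one by one. Besides the 6 genes described above, 7 EphA receptors, 4 EphB receptors, 3 ephrin-A and 3 ephrin-B ligands and 2 genes of the Kirrel and nephrin family were measured. Epha7, which encodes another EphA receptor, was higher in GFP+ cells by 0.79 (SE 0.11, limma adjusted p = 3.24e-05) and in 8 of 8 pools. It was the only one of the 7 called, and the median over all 9 EphA receptors was 0.15, near that of all probe sets. Epha6 and Epha8 lay under background in both fractions.

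Among EphB receptors 2 of 4 were lower, against 14.0% of all probe sets, and the list's median was −0.28. These were Ephb4 (−0.55, SE 0.13, limma adjusted p = 0.00482) and Ephb6 (−0.42, SE 0.15, adjusted p = 0.0462), whose size is uncertain, with 6 of 16 arrays under background. Neither call held with arrays centred on their medians (−0.28, adjusted p = 0.0699, and −0.14, adjusted p = 0.413), and Ephb6 also lost it when the pool was a block (adjusted p = 0.0522), without both replicate 4 pools and when any of 6 single pools was left out. Of the ligands, Efna4 (ephrin-A4) was lower by −0.55 (SE 0.11, adjusted p = 0.00117) and in 8 of 8 pools, but was not called after quantile normalisation. Efnb3 (ephrin-B3) was higher by 0.50 (SE 0.13, adjusted p = 0.00814), also in 8 of 8 pools. The medians were 0.11 for the 5 ephrin-A and −0.32 for the 3 ephrin-B genes. Kirrel, the third Kirrel paralogue, differed by 0.37 (SE 0.26, adjusted p = 0.291) and was called when the pool was a block (adjusted p = 0.0184). Nphs1, which encodes the related protein nephrin, differed by 0.26 (SE 0.11, adjusted p = 0.0704). With arrays centred on their medians Kirrel (0.65, limma adjusted p = 0.0299) and Nphs1 (0.54, adjusted p = 0.000534) were called higher, as were 66.9% of all probe sets.

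**Figure D4:**
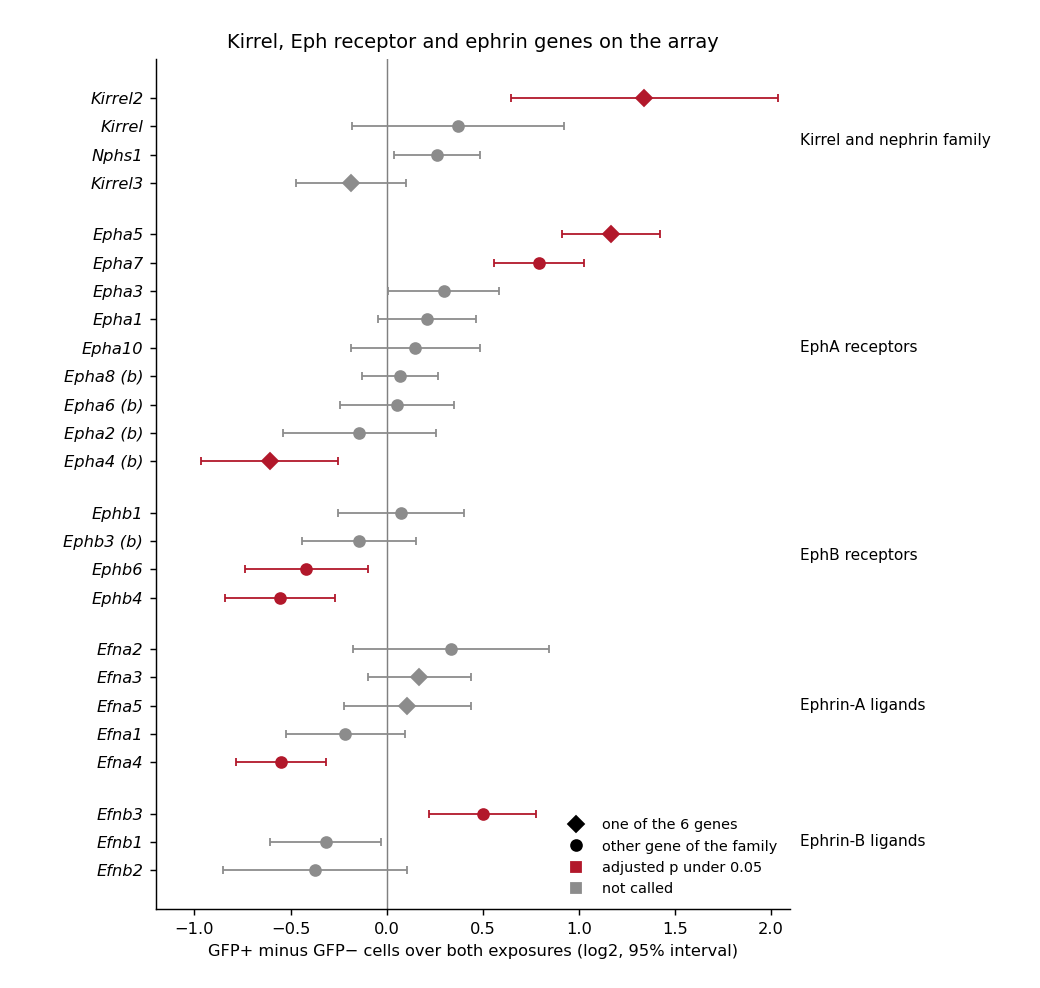
GFP+ minus GFP− signal over both exposures (log2, with 95% interval from limma) for all 25 Kirrel, nephrin, Eph and ephrin genes on the array; diamonds mark the 6 genes, red marks an adjusted p under 0.05, and (b) marks genes under background on more than 8 of 16 arrays. Kirrel2, Epha5, Epha7 and Efnb3 lie to the right of 0 and Epha4, Ephb4, Ephb6 and Efna4 to the left.

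Genes that act behind these receptors were counted in the same way. Of 16 measured genes of Eph signalling none was called higher, 6 were called lower and 10 were not called, against 16.7% higher and 14.0% lower over all probe sets. The list's median was −0.06, where that of all probe sets was 0.13. Vav3, an exchange factor for small GTPases, was lower by −1.47 (SE 0.22), Adam10, a protease that cleaves ephrins, by −0.74 (SE 0.12), the kinase gene Fyn by −0.65 (SE 0.14) and Rac1, a small GTPase gene, by −0.55 (SE 0.10). Vav3 read near background in GFP+ cells (means 5.35 after 2-octanone and 5.57 after vehicle), which limits the size of its difference. Fyn missed the threshold after quantile normalisation (limma adjusted p = 0.0527). With arrays centred on their medians the list held 8 higher and 4 lower, where 66.9% of all probe sets were then called higher and 10.5% lower. Of 6 measured genes for proteins that bind Kirrel family tails, 3 of them shared with the Eph list, 2 were lower, Fyn and the adaptor Grb2 (−0.37, SE 0.08), and Grb2 was not called with centring.

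Of 12 other axon adhesion genes 4 were higher, 2 lower and 6 not called, against 16.7% higher and 14.0% lower over all probe sets. Their median was 0.12, near the 0.13 of all probe sets. Pcdh10, a protocadherin gene known to respond to activity in these neurons, was higher by 1.51 (SE 0.36, limma adjusted p = 0.00427), Pcdh17 by 0.55 (SE 0.11) and L1cam by 0.38 (SE 0.14). Alcam, an adhesion gene of growing axons, was lower by −1.57 (SE 0.18, adjusted p = 2.81e-06). L1cam was not called when any of 6 single pools was left out. Of the 5 genes of the cyclic nucleotide-gated cascade 3 were higher, against the same 16.7% of all probe sets, with a median of 0.30. These were Cngb1 (0.56, SE 0.16), Adcy3 (0.37, SE 0.11) and Cnga2 (0.30, SE 0.09). Cngb1 and Cnga2 are also among the 10 mature neuron markers, so the 2 counts overlap. None of the 5 was called after vehicle alone or 2-octanone alone, where 18.6% and 15.1% of probe sets were called.

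Markers of several other cell types were lower in GFP+ cells. The counts of called markers here and below stand against 14.0% of all probe sets called lower and 16.7% called higher. The 10 neutrophil markers were all lower in GFP+ cells (median −7.04), and their summed signal was 10.53 to 17.27 on GFP+ arrays against 18.90 to 20.03 on GFP− arrays. Of 10 immature neuron markers 5 were lower (median −0.44; sums 16.56 to 16.81 against 16.54 to 17.23), and of 6 precursor markers 5 (median −1.42; sums 9.62 to 10.69 against 11.71 to 13.33). All 6 markers of dividing cells (median −2.85; sums 8.81 to 9.97 against 12.00 to 13.96) and all 7 of microvillar cells (median −2.66; sums 9.17 to 10.32 against 11.70 to 13.00) were lower. Macrophage markers were lower in 4 of 7 (median −0.54; sums 9.89 to 11.50 against 11.50 to 13.21).

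Mature neuron markers summed to 20.59 to 20.68 on GFP+ arrays and to 19.93 to 20.56 on GFP− arrays. Sustentacular markers were lower in 3 of 7 and higher in 1 (sums 14.49 to 16 against 14.73 to 16.21), ensheathing glia markers lower in 1 of 6 (14.24 to 16.44 against 15.06 to 16.26), endothelial markers lower in 2 of 7 (8.04 to 8.34 against 8.20 to 8.55) and fibroblast markers in 0 of 5 (8.93 to 10.84 against 9.08 to 10.73). Markers under background on all 8 GFP+ arrays were Neurog1, Neurod2, Frzb, Kdr, Tek, Cldn5, Col3a1, Chat and Cdk1, and on all 8 GFP− arrays Neurod2, Frzb, Kdr, Cldn5, Emcn and Col3a1. The part of these markers in the differences of Kirrel2, Epha5 and the other genes was not tested.

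The exposures were compared within each fraction. No gene of the 6 was called in GFP+ cells or in GFP− cells by limma, and none had an unadjusted p under 0.05. Of all probe sets 0.0% were called in GFP+ cells and 0.00511% in GFP− cells, while 618 and 477 had an unadjusted p under 0.05. Kirrel2 gave the largest differences of the 6, 0.85 in GFP+ cells (SE 0.46, 95% interval −0.13 to 1.82, limma adjusted p = 1) and 0.73 in GFP− cells (SE 0.46, 95% interval −0.25 to 1.71, adjusted p = 1). Leaving out vehicle replicate 4, the lowest Kirrel2 array of each fraction, took them to 0.49 and 0.30. Leaving out vehicle replicate 2 took them to 1.15 and 1.03 (unadjusted p = 0.0201 and 0.0342 by limma), and leaving out octanone replicate 4 took the GFP+ value to 1.09 (unadjusted p = 0.0415). Without both replicate 4 pools they were 0.74 (unadjusted p = 0.0448) and 0.50 (unadjusted p = 0.158). None of these values was called over all probe sets (limma adjusted p = 0.944 to 1 over the single pools left out).

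In GFP+ cells the differences of the other 4 genes above background were 0.06 for Kirrel3, −0.13 for Epha5, −0.12 for Efna5 and −0.01 for Efna3. In GFP− cells they were −0.01 for Kirrel3, −0.24 for Epha5, −0.15 for Efna5 and −0.04 for Efna3. Their 95% intervals lay within −0.58 to 0.47 in GFP+ cells and −0.62 to 0.39 in GFP− cells, and all of them included 0. Summed neutrophil markers in GFP+ cells were 11.07 to 17.27 after 2-octanone and 10.53 to 12.54 after vehicle, and their part in these differences was not tested.

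Members of the wider lists were not called between exposures either. The median over 9 EphA receptors was 0.06 in GFP+ cells and 0.11 in GFP− cells, and over 5 ephrin-A ligands −0.02 and −0.13, where that of all probe sets was 0.01 and 0.00. Pcdh10 had the largest value of the adhesion list, 2.09 in GFP+ cells (SE 0.51) and 1.99 in GFP− cells (SE 0.51), neither called (limma adjusted p = 1 in each).

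Whether the difference between the fractions depended on the exposure was tested as the change of that difference. The change was 0.11 for Kirrel2 (SE 0.65, 95% interval −1.27 to 1.5), 0.07 for Kirrel3, 0.11 for Epha5, 0.03 for Efna5 and 0.03 for Efna3. None of the 6 was called by limma or had an unadjusted p under 0.05, and of all probe sets 0.0% were called and 465 had an unadjusted p under 0.05. With the pool as a block the Kirrel2 value had an SE of 0.21 (95% interval −0.36 to 0.59), so a change of more than 0.59 lies outside that interval.

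Genes with the most similar signal over the 16 arrays were taken for each of the 6, by Pearson correlation among 19504 other genes. For Kirrel2 these were Lrrc3b (r = 0.97), Kcnmb3 (0.96) and Tollip (0.95), and for Kirrel3 Bri3bp (0.94), Tcf12 (0.93) and Bcl7a (0.93). Between the fractions Lrrc3b and Kcnmb3 differed by 1.74 and 1.43, and Tollip by 0.30. The genes were picked on signals that include the group differences. A shared direction between the fractions, here and for Epha5, thus follows in part from that choice. For Epha5 the closest were odorant receptor genes, Olfr517 (0.96), Olfr187 (0.96) and Olfr742 (0.95), which were higher in GFP+ cells by 2.89, 1.96 and 3.02. For Efna5 they were Pacs2 (0.95), Synj1 (0.95) and Ppp1r15b (0.94), for Efna3 Aplp1, Ccdc92 and Lpcat4 (0.97 each), and for Epha4 Cables2 (0.89), Tbkbp1 (0.86) and Parp10 (0.85). An r over 0.9 was reached by 28 genes for Kirrel2, 14 for Kirrel3, 122 for Epha5, 58 for Efna5, 324 for Efna3 and 0 for Epha4. Except for Epha4, the named genes are thus the top of longer lists.

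These correlations describe 16 arrays that share pools and group differences. With group means taken out, the closest genes were Kcnmb3 (0.98), Ptpn9 (0.96) and Tox4 (0.96) for Kirrel2, and Lgals3bp (0.98), Npc1 (0.97) and Hs6st1 (0.96) for Kirrel3. They were Pacs2 (0.96), Synj1 (0.96) and Angel1 (0.96) for Efna5, Ccdc92, Abcc1 and Fam131c (0.98 each) for Efna3, Bspry (0.90), Zfp964 (0.85) and Olfr906 (0.84) for Epha5 and Teddm1a (0.89), Sh2b3 (0.85) and Csn3 (0.81) for Epha4. For these residuals r was over 0.9 with 285 genes for Kirrel2, 282 for Kirrel3, 171 for Efna5 and 510 for Efna3. It was over 0.9 with 0 genes for Epha5 and for Epha4. Among the 6 genes themselves, these residuals correlated with r = 0.89 between Kirrel2 and Kirrel3, 0.82 between Efna3 and Efna5 and 0.88 between Efna3 and Kirrel2. With group means kept, Kirrel2 and Kirrel3 correlated with r = 0.31 and Epha5 and Kirrel2 with 0.61. The residuals of Kirrel2, Kirrel3 and Efna3 share the low replicate 4 arrays.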

How the data were processed

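The deposited table holds 28846 probe sets on 16 arrays, normalised by the authors and read as log2 signals from their range of 2.13 to 18.99. Affymetrix Expression Console is the tool that the submitters' processing notes list, and the algorithm, the log base and the build are not given in the sources used here. Controls (6640 probe sets) and probe sets that named no single gene (2634) were left out. Group means of all 16 arrays were fitted in R 4.3.3 with the lmFit and eBayes functions of limma 3.58.1 (12 residual degrees of freedom, prior 4.19, two-sided), and p-values were adjusted over 19572 probe sets. On simulated data with known changes the fitting code was tested first. Groups came from the sample titles.

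A pool's GFP+ and GFP− cells share their mice, which makes the pool a pairing; it entered as a block in an alternative. Nothing in the labels says whether replicate pools were run on separate days, so p-values of the unpaired fit measure the spread between these pools. That fit treats the fractions of a pool as independent, also where GFP+ and GFP− cells are compared. The spread of the difference within pools is measured only with the pool as a block. There the SE of that difference was 0.11 for Kirrel2 against 0.33 unpaired, and 0.12 for Epha5 in both fits. The 6 genes, the 20 gene lists and the tests were chosen with earlier results of these data known. Named genes were, besides the 6, S100a5, Omp and Fos as checks, up to 4 called genes of each list by size of the difference or, with none called, the 2 with the smallest p, and the 3 genes most alike for each of the 6. For marker lists the text leaves out the called genes of that rule and gives counts, medians and sums, and names the markers under background. Fos was lower in GFP+ cells (−4.30, SE 0.56, limma adjusted p = 1.56e-05). Summed signals add the list's linear signals and are given as log2. Alternatives were quantile normalisation, centring on array medians, a low-signal filter, unnamed probe sets included, limma's trend, only the arrays compared, each pool left out, both replicate 4 pools left out, and the pool or replicate number as a block.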

Additional observations from a re-analysis of the deposited data

Results flagged for a closer look

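Each gene's 4 values were screened in every group, and its 4 within-pool differences in each exposure, for 1 value far from the other 3. Of 36 such sets 5 held one, where chance gives about 1 in 20 for sets that are independent, and all 5 came from replicate 4 pools. The sets share arrays, and the differences use the same values again, so that rate is no test of this count. Kirrel3 read 12.81 and Efna5 13.22 in GFP+ cells of octanone replicate 4, both far below the other 3 pools of that group. Efna5 read 13.11 and Efna3 16.24 in GFP− cells of vehicle replicate 4, again far below the others. The difference of Efna3 between the fractions was 0.51 in vehicle replicate 4, far above the other 3 vehicle pools, and it contains the same GFP− value of 16.24. Neither Kirrel2 nor Epha5 gave such a value.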

How the results depend on the processing

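Over both exposures Kirrel2 (1.26 to 1.62) and Epha5 (1.08 to 1.45) were called in all 16 alternatives run, and Epha4 in 14 of 15, the exception being centring, while the low-signal filter left Epha4 out. The number of the 6 genes called after vehicle was 1, and became 3 with arrays centred on their medians and 2 without both replicate 4 pools or with the pool as a block. After 2-octanone it was 1, and became 3 with quantile normalisation or centring and 2 with limma's trend, with only the arrays compared, without both replicate 4 pools or with the pool as a block. The rise is Kirrel2 in the fits that give 2. Kirrel2 was not called within an exposure when a single pool was left out (adjusted p 0.0535 to 0.15 after vehicle, 0.0806 to 0.212 after 2-octanone).

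Signs turned only among differences that were not called. With centring these were Kirrel3 between fractions (0.093 over both exposures, 0.077 after vehicle, 0.11 after 2-octanone), Kirrel3 between exposures in GFP− cells (0.0073) and the changes of Efna5 (−0.0102) and Efna3 (−0.0131). Without both replicate 4 pools they were Efna5 after vehicle (−0.0573), Efna3 in GFP+ cells (0.0031), Epha4 in GFP− cells (−0.09) and the change of Epha4 (0.27). With single pools left out, Efna5 between fractions ran from −0.0573 to 0.18 after vehicle and −0.0894 to 0.28 after 2-octanone. Between exposures in GFP+ cells Kirrel3 ran from −0.0378 to 0.23, Efna5 from −0.19 to 0.0441, Epha4 from −0.11 to 0.24 and Efna3 from −0.066 to 0.0627. In GFP− cells the ranges were −0.13 to 0.0831 for Kirrel3, −0.36 to 0.0096 for Efna5, −0.0324 to 0.27 for Epha4 and −0.21 to 0.0924 for Efna3. The change of the difference ran from −0.0374 to 0.26 for Kirrel2, −0.0125 to 0.15 for Kirrel3, −0.0463 to 0.29 for Epha5, −0.18 to 0.19 for Efna5, −0.28 to 0.13 for Epha4 and −0.0297 to 0.15 for Efna3. The causes were not tested.

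Pairing the exposures by replicate number was checked through residuals across genes. These correlated with r = 0.19, 0.17, 0.26 and 0.43 for the 4 numbers in GFP+ cells, and with 0.34, −0.06, 0.35 and 0.52 for GFP− cells. Between the fractions of 1 pool r was 0.26, −0.00, 0.32 and 0.46 with 2-octanone, and 0.09, 0.22, 0.30 and 0.44 with vehicle. The check thus did not tell these pairings apart. The pool was taken as a pairing because its fractions share their mice. No label states a pairing for the numbers, so they were not taken to pair the pools. With the number as a replicate block 0 of the 6 genes were called, as without it, and Kirrel2 had an unadjusted p of 0.0107 in GFP+ cells (95% interval 0.27 to 1.42, adjusted p = 0.928) and 0.0418 in GFP− cells (0.03 to 1.43, adjusted p = 0.998), so that both unadjusted intervals then lay above 0. With the pool as a replicate block the other calls of the 6 genes over both exposures were the same. Limits are the 4 pools per exposure, signals near background for Epha4, and a scaling that is not stated.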
